A study of Homo sapiens with 6 samples.

Results

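The lysosome and autophagy genes described here are 35 genes chosen by name. They comprise 6 lysosomal membrane proteins, 6 proteases of the lumen, 5 glycosidases, 2 lipid hydrolases, 3 luminal cofactors and carriers, 5 genes of the proton pump (V-ATPase), the transcription factors TFEB and TFE3, and 6 autophagy genes. Of the 60483 gene rows in the deposited counts, 1 row was matched to each of the 35 by its Ensembl ID, and all 35 were among the 14965 genes tested. The counts come from 253J, a human bladder cancer cell line (passage 16-19) grown in RPMI-1640 with serum, and the cells of both groups carried a transfected siRNA. The control group received control siRNA (replicates 1, 2 and 3) and the FTO-knockdown group received siRNA against FTO (replicates 4, 5 and 6, named siFTO by the labels). FTO removes m6A, a methyl mark on adenosines of RNA. The methods of the paper describe shRNA vectors rather than siRNA for FTO, and no source used here says that the replicates were separate cultures, so p-values measure the spread between these libraries, which may be technical.

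Total counts were 10991789 to 19891269 in the controls and 13162731 to 15709975 in the siFTO libraries. FTO itself stood at 21.4 to 31.8 CPM (counts scaled to a library of 1000000 reads, with TMM-scaled library sizes) in the controls and at 15.8 to 20.7 CPM in the siFTO libraries, without overlap. Its log2 fold change was -0.57 (SE 0.16, adjusted p = 0.0209 from edgeR), which missed the threshold when control replicate 1 or 3 was removed (adjusted p = 0.107 and adjusted p = 0.113). Epithelial markers were abundant in each library (summed level of the 6 markers 8580 to 10900 CPM on library totals). Of 11 urothelial markers, PPARG and FOXA1 reached 10 CPM in each library and KRT20 did so in the siFTO libraries, while UPK1B was at 0 throughout. GATA3, KRT5, TP63, UPK1A, UPK2 and UPK3A did not exceed 0.886 CPM in any library, and UPK3B did not exceed 2.47 CPM. The siFTO libraries were not alike. The summed level of 16 mesenchymal and fibroblast markers was 2380 and 2880 CPM in replicates 4 and 5. Replicate 6 had 53 CPM and the controls had 30.1 to 33.7 CPM. In replicates 4 and 5 each, 9 of the 16 reached 10 CPM, with VIM and TGFBI the most abundant. Other members of this list stayed low. COL3A1, THY1 and PDGFRA did not exceed 0.148 CPM in any library, and DCN and LUM did not exceed 1.48 CPM. PDGFRB, at 7.23 CPM (replicate 4) and 6.94 CPM (replicate 5), lay within its control range of 4.39 to 7.46 CPM. FAP reached 4.72 CPM (replicate 4) and 5.16 CPM (replicate 5), with at most 0.304 CPM elsewhere. The 14 leukocyte and macrophage markers summed to 94.9 and 116 CPM in replicates 4 and 5 and to at most 7.67 CPM elsewhere, with CD74 and HLA-DRA alone above 10 CPM, and the macrophage receptor CSF1R reached 7.97 CPM (replicate 4) and 7.83 CPM (replicate 5), with at most 0.38 CPM elsewhere. PTPRC and CD68 of the same list did not exceed 0.546 CPM in any library. The 20 called genes are also described with replicate 6 as the sole siFTO library against the 3 controls.

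Lysosomes are acidic compartments in which hydrolases break down proteins, glycans and lipids. V-ATPase pumps in the protons, and cargo arrives by endocytosis or by autophagy, in which a membrane marked by LC3 and GABARAP proteins closes around cytoplasm. TFEB and TFE3 are transcription factors that switch on many of these genes when nutrients are scarce, and they bind a palindromic promoter motif called the CLEAR element, whose centre is the E-box CACGTG.

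RefSeq promoter windows (GRCh38.p14, 250 bases before to 50 after each annotated gene start) were found for 26 of the 35 genes, 40 windows in all. LAMP2, CTSB, HEXA, ASAH1, PSAP, ATP6V1H, ATP6V1A, ATP6V1B2 and UVRAG had none. Searched on both strands, the letters CACGTG were present in 8 of the 40 windows (20%) and in 7.26% of all 35116 windows. The longer TCACGTGA, which contains CACGTG, was present in 5 of 40 (12.5%, against 0.98% of all windows), and the full CLEAR letters GTCACGTGAC, which contain both, in 2 of 40 (5%, against 0.353%). The genes were chosen by name from a pathway that TFEB and TFE3 switch on in part. These shares therefore describe that choice and not the siFTO comparison. Some of the matches are shown because they lie in genes that moved in opposite directions. Each line is 30 bases on the strand of the gene, with the matched letters in capitals.
MCOLN1 at chr19:7522598-7522627 (+ strand): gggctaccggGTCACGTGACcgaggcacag
GAA at chr17:80101493-80101522 (+ strand): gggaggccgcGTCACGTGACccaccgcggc
GAA at chr17:80101538-80101567 (+ strand): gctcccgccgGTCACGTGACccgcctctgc
LAMP1 at chr13:113297199-113297228 (+ strand): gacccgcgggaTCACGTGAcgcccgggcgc
LAMP1 at chr13:113297226-113297255 (+ strand): cgcggcgcagcTCACGTGAcaagcgctgcc
CTSA at chr20:45891298-45891327 (+ strand): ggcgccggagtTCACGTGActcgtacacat
ATP6V0D1 at chr16:67481199-67481228 (- strand): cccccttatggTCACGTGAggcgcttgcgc
NEU1 at chr6:31862930-31862959 (- strand): atgctgcgtgaTCACGTGggaggagatgag
Positions are relative to the RefSeq gene start that defines each window, and a gene can have several windows. The CACGTG of the MCOLN1 match shown begins at position -14, those of GAA at -76 and -31, and those of LAMP1 at -28 and -1. That of CTSA begins at -25, that of ATP6V0D1 at -59 and that of NEU1 at -126. In GENCODE, the source of the gene bounds given below, CTSA starts at 45890144 (+ strand) and ATP6V0D1 at 67481237 (- strand). The matches shown for CTSA and ATP6V0D1 therefore lie inside their GENCODE bounds. MCOLN1, LAMP1, CTSA, ATP6V0D1 and NEU1 were higher in the siFTO libraries, and GAA, with 2 full matches, was lower. CTSD and CD63, which also carry a CACGTG, did not pass the test. Among the 26 of the 35 genes with windows, the full letters were present in MCOLN1 and GAA alone. A match in these windows is a description of the letters and not of binding.

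In the siFTO libraries 16 of the 35 genes (45.7%) rose and 4 (11.4%) fell at an adjusted p under 0.05 from edgeR, whereas the remaining 15 were not called. Among all 14965 genes tested, 19.5% were higher and 17.9% were lower, together 37.4%. The 35 genes were chosen with earlier results of these data known, so the difference between these shares is not a test. The count of higher genes fell to 8 without control replicate 3 and to 9 without control replicate 1 (11.3% and 8.55% of all genes were higher in those fits). The 16 higher genes were LAMP1, LAMP2, NPC1, MCOLN1, CTSA, CTSL, GLA, NEU1, LIPA, ASAH1, ATP6V0D1, ATP6V1A, SQSTM1, MAP1LC3B, GABARAPL1 and WIPI1, and the 4 lower genes were CTSZ, GAA, TFEB and ULK1. The median log2 fold change was 0.24 over the 35 genes and 0.0057 over all genes tested. Of the 35, 26 (74.3%) lay above 0, against 50.5% of all genes tested. In 16 genes (45.7%) each siFTO library lay above each control, against 25.8% of all genes tested, and in 5 (14.3%) each lay below, against 25.6%. In either direction, the groups were apart in 51.4% of all genes tested. Fewer cells of a type and less RNA per cell cannot be told apart in these bulk libraries.

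**Figure D1:**
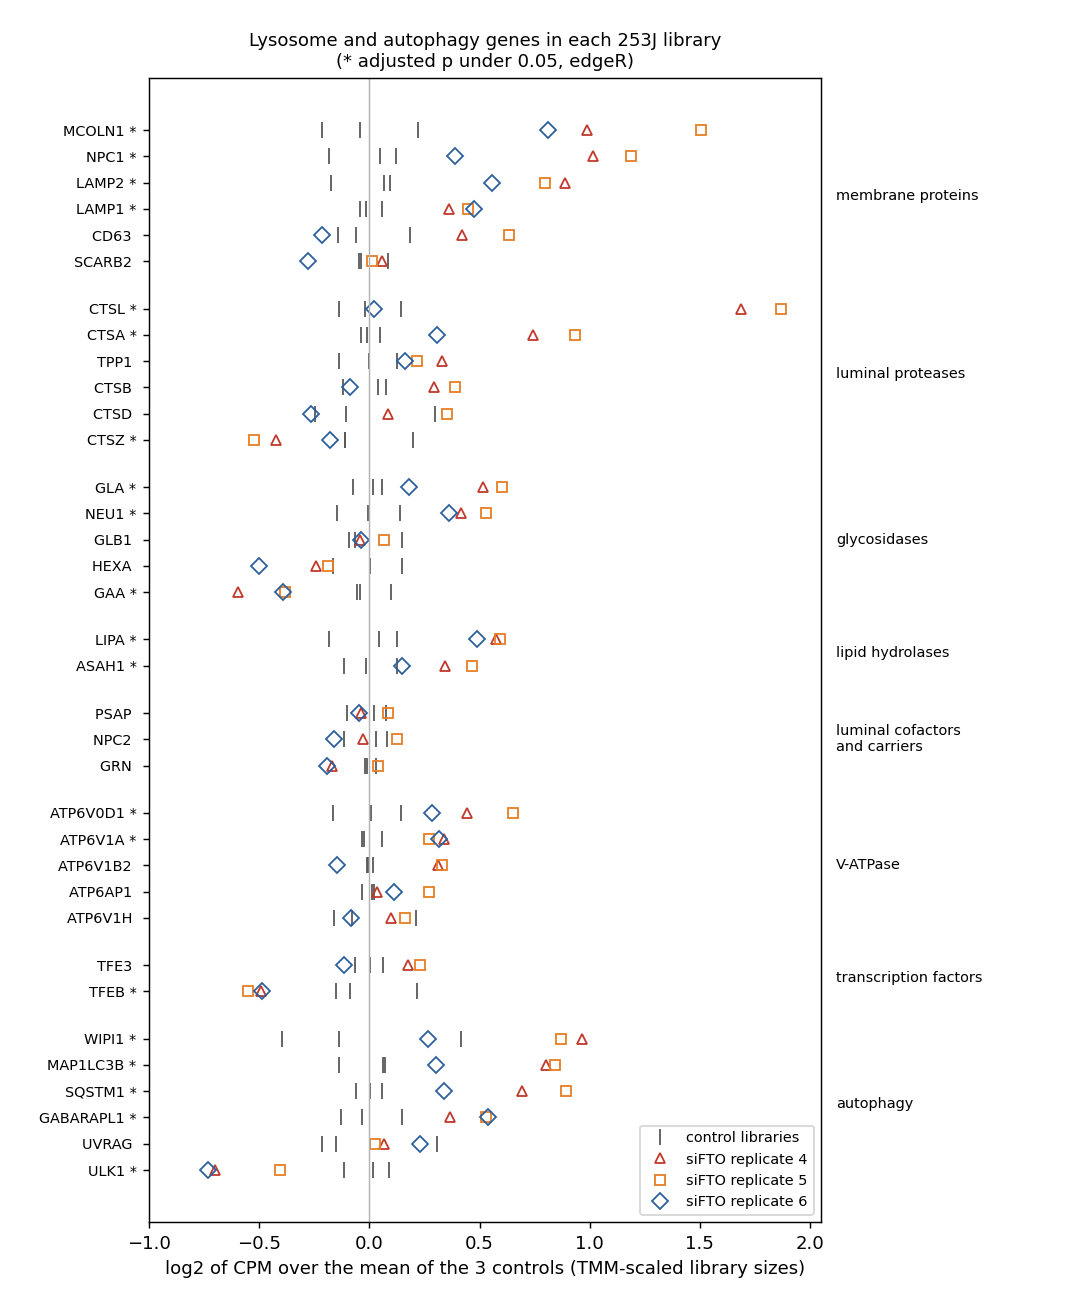
Level of each of the 35 genes in each library, as log2 of CPM over the mean of the 3 controls (horizontal axis), grouped by role. Ticks are the 3 control libraries, open symbols are siFTO replicates 4, 5 and 6, and an asterisk marks an adjusted p under 0.05 from edgeR. Replicate 6 was the lowest siFTO library in 26 of the 35 genes (74.3%), against 35.6% of all genes tested.

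The shift was unequal among the siFTO libraries. The median of the 35 genes relative to the control mean was 0.33 and 0.35 on the log2 scale in replicates 4 and 5 and 0.11 in replicate 6. Replicate 6 was the lowest of the 3 siFTO libraries in 13 of the 16 higher genes (81.2%), compared with 49.6% of the 2913 higher genes among all tested. It lay above each control in 14 of the 16 (87.5%, all but CTSL and WIPI1), against 94.1% of those 2913. With replicate 6 alone against the controls, 3 of the 35 were higher (LAMP1, LAMP2 and MCOLN1; 6.17% of all genes were higher in that fit) and 1 was lower (ULK1; 5.89% of all genes), with a median log2 fold change of 0.11. That fit has a single siFTO library, which is assumed to vary as the controls do. The mesenchymal marker sum moved with this order of the libraries, and its part in the result was not tested.

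Among the membrane proteins, 4 of 6 rose (66.7%, against 19.5% of all genes). None fell (against 17.9% of all genes), except that SCARB2 was lower after a correction for gene length and GC content. LAMP1 and LAMP2 are the abundant glycoproteins that line the lysosomal membrane. LAMP1 stood at 279, 283 and 298 CPM in control replicates 1, 2 and 3 and at 369, 391 and 398 CPM in siFTO replicates 4, 5 and 6. All siFTO libraries lay above all controls, with replicate 6 the highest, and the log2 fold change was 0.43 (SE 0.08, adjusted p = 0.0033). LAMP2 stood at 39.8, 33.8 and 40.6 CPM in the controls and at 70.5, 66.2 and 55.9 CPM in the siFTO libraries. The groups were well apart, with a log2 fold change of 0.75 (SE 0.11, adjusted p = 0.00145). MCOLN1 encodes the calcium channel TRPML1, through which lysosomal calcium release activates TFEB. It was scarce, at 6.42, 7.23 and 8.68 CPM in the controls and 14.8, 21.1 and 13.1 CPM in the siFTO libraries. At 1.12 (SE 0.20, adjusted p = 0.00252), its log2 fold change was the second largest of the 35 genes. Against the same controls, replicate 6 alone gave log2 fold changes of 0.47 for LAMP1, 0.56 for LAMP2 and 0.79 for MCOLN1 (adjusted p values of 0.0389, 0.0328 and 0.0312).

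NPC1, the membrane protein that exports cholesterol from the lysosome, stood at 30.9, 25.0 and 29.4 CPM in the controls and at 57.5, 64.8 and 37.2 CPM in the siFTO libraries. Replicates 4 and 5 were far above replicate 6, which itself lay above the controls, and the log2 fold change was 0.91 (SE 0.18, adjusted p = 0.00421, and adjusted p = 0.0542 without control replicate 2). Replicate 6 alone gave 0.39 (adjusted p = 0.125). CD63, a tetraspanin of late endosomes and exosomes, stood at 339, 402 and 321 CPM in the controls and at 473, 549 and 305 CPM in the siFTO libraries. Replicate 6 was below each control while replicates 4 and 5 were above, and CD63 did not pass (log2 fold change 0.32, SE 0.18, adjusted p = 0.186), except without replicate 6 (0.52, adjusted p = 0.0018) or after the length and GC correction (0.51, adjusted p = 0.0412). SCARB2, a receptor that sorts a hydrolase to lysosomes, had overlapping groups, at 146 to 160 CPM in the controls and 125 to 157 CPM in the siFTO libraries. The log2 fold change of -0.06 (adjusted p = 0.652) became -0.37 (adjusted p = 0.0114) after the length and GC correction.

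**Figure D2:**
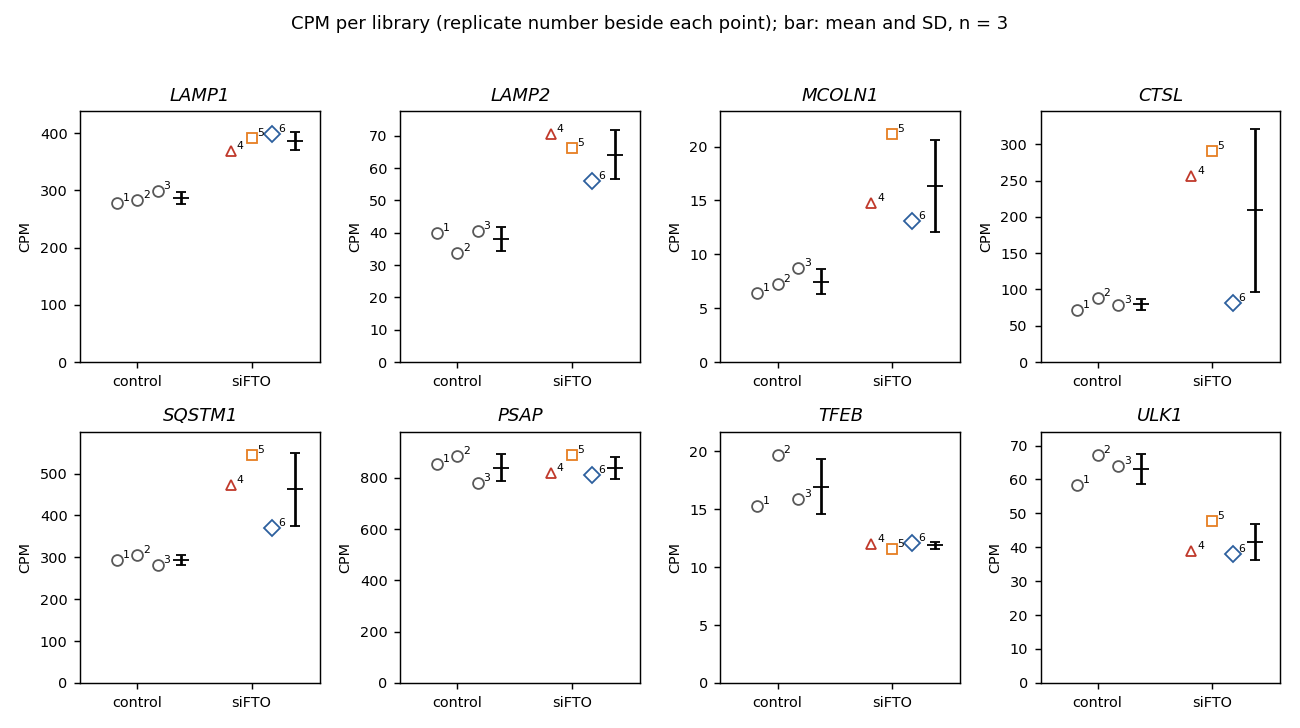
CPM on TMM-scaled library sizes (vertical axes, from 0) of 8 of the genes, for 3 control and 3 siFTO libraries. Numbered points stand for single libraries, and the bar beside each group is its mean and SD. CTSL lies at 256, 291 and 80.7 CPM in replicates 4, 5 and 6, whereas TFEB and ULK1 are below the controls in each siFTO library.

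The luminal proteases did not move as a group, with 2 of 6 higher, 1 lower and 3 that did not pass. These shares of 33.3% higher and 16.7% lower stand beside 19.5% and 17.9% of all genes. CTSL, the cysteine protease cathepsin L, had the largest log2 fold change of the 35 genes (1.39, SE 0.35, adjusted p = 0.0124). It stood at 72.4, 87.8 and 78.5 CPM in the controls and at 256, 291 and 80.7 CPM in the siFTO libraries. Replicate 6 lay within the range of the controls, and with replicate 6 alone the log2 fold change was 0.02 (adjusted p = 0.946). CTSL also missed the threshold when control replicate 1, 2 or 3 or siFTO replicate 4 was removed (adjusted p values of 0.102, 0.0913, 0.0948 and 0.0503). CTSA, a carboxypeptidase that also protects the sialidase NEU1, stood at 132, 140 and 135 CPM in the controls and at 227, 259 and 168 CPM in the siFTO libraries. All siFTO libraries were above all controls, with a log2 fold change of 0.69 (SE 0.14, adjusted p = 0.00433, and adjusted p = 0.0524 without control replicate 1) that was 0.31 with replicate 6 alone (adjusted p = 0.14). In GENCODE 29, 28.5% of the exonic bases of CTSA are also exonic in genes on the other strand, so its count may depend on how reads there were assigned.

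CTSZ, a cysteine carboxypeptidase, went the other way. It stood at 172, 214 and 173 CPM in the controls and at 139, 129 and 165 CPM in the siFTO libraries, a log2 fold change of -0.37 (SE 0.12, adjusted p = 0.0316). This call was fragile. It was lost without control replicate 1, 2 or 3 or siFTO replicate 4 or 5 (adjusted p values of 0.0798, 0.137, 0.0796, 0.117 and 0.114), with library totals as scaling (adjusted p = 0.1) and after the length and GC correction (log2 fold change -0.07, adjusted p = 0.582). Replicate 6 by itself gave -0.18 for CTSZ (adjusted p = 0.486). CTSB, the cysteine protease cathepsin B, was at 0.21 on the log2 scale (adjusted p = 0.194), with 435 and 466 CPM in replicates 4 and 5 and 334 CPM in replicate 6 beside 328 to 374 CPM in the controls. It passed without replicate 6 (0.33, adjusted p = 0.0159) and with library totals as scaling (0.33, adjusted p = 0.0433). CTSD, the aspartic protease cathepsin D, overlapped between groups (208 to 303 CPM in the controls, 205 to 315 CPM in the siFTO libraries). CTSD was at a log2 fold change of 0.08 (adjusted p = 0.732), and 41.7% of its exonic bases overlap another gene on the same strand in GENCODE 29. TPP1, a tripeptidyl peptidase, stood at 110 to 133 CPM in the controls and at 136 to 153 CPM in the siFTO libraries, without overlap, and did not pass (log2 fold change 0.24, SE 0.09, adjusted p = 0.0633) except with library totals as scaling (0.36, adjusted p = 0.0189).

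Of the 5 glycosidases, GLA and NEU1 rose, GAA fell, and HEXA and GLB1 did not pass (40% higher and 20% lower, against 19.5% and 17.9% of all genes). GAA, the acid alpha-glucosidase that degrades lysosomal glycogen, stood at 177, 196 and 176 CPM in the controls and at 121, 140 and 139 CPM in the siFTO libraries. Each siFTO library was below each control (log2 fold change -0.45, SE 0.09, adjusted p = 0.00433), and with replicate 6 alone the log2 fold change was -0.39 (adjusted p = 0.0885). The sialidase NEU1 stood at 41.6, 46.1 and 37.8 CPM in the controls and at 55.8, 60.3 and 53.7 CPM in the siFTO libraries. The groups did not overlap (log2 fold change 0.44, SE 0.10, adjusted p = 0.00816, and adjusted p = 0.0531 without control replicate 1). NEU1 was at 0.36 with replicate 6 alone (adjusted p = 0.136). GLA, the alpha-galactosidase, stood at 34.8 to 38.2 CPM in the controls and at 52.5, 55.7 and 41.6 CPM in siFTO replicates 4, 5 and 6 (log2 fold change 0.44, SE 0.12, adjusted p = 0.0142). It did not pass when control replicate 1, 2 or 3 or siFTO replicate 4 or 5 was left out (adjusted p values of 0.0818, 0.0659, 0.0575, 0.0629 and 0.0555), and GLA was at 0.18 with replicate 6 alone (adjusted p = 0.452). HEXA, the alpha subunit of beta-hexosaminidase, lay at 17.5 to 21.7 CPM in the controls and at 13.9 to 17.2 CPM in the siFTO libraries, with a log2 fold change of -0.30 (adjusted p = 0.0931) that became -0.52 (adjusted p = 0.0164) after the length and GC correction. GLB1, the beta-galactosidase, was at 97.6 to 116 CPM and 101 to 109 CPM (log2 fold change -0.0022, SE 0.09, adjusted p = 0.987).

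Both lipid hydrolases rose, where 19.5% of all genes were higher. LIPA, the acid lipase that frees cholesterol from its esters, stood at 47.4, 38.2 and 44.8 CPM in the controls and at 64.8, 65.6 and 60.9 CPM in the siFTO libraries. The 3 siFTO values were close to each other and above each control (log2 fold change 0.56, SE 0.10, adjusted p = 0.00286). Replicate 6 alone gave 0.49 (adjusted p = 0.0527). ASAH1, the acid ceramidase, stood at 64.0 to 75.6 CPM in the controls and at 87.9, 95.7 and 76.8 CPM in the siFTO libraries, where replicate 6 was just above the highest control. Its log2 fold change of 0.33 (SE 0.10, adjusted p = 0.0325) lost its call without control replicate 1, 2 or 3 or siFTO replicate 4 or 5 (adjusted p values of 0.0662, 0.122, 0.114, 0.0943 and 0.112), and it was 0.02 (adjusted p = 0.865) after the length and GC correction and 0.15 with replicate 6 alone (adjusted p = 0.524).

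The luminal cofactors and carriers did not pass. PSAP, the precursor of the saposins that help lipid hydrolases, stood at 852, 884 and 781 CPM in the controls and at 818, 889 and 811 CPM in the siFTO libraries. PSAP, at a log2 fold change of 0.00021 (SE 0.09, adjusted p = 0.999), was the nearest to 0 of the 35 genes. For NPC2, which hands cholesterol to NPC1, the log2 fold change was -0.02 (SE 0.10, adjusted p = 0.901), and for the granulin precursor GRN it was -0.10 (SE 0.09, adjusted p = 0.381).

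All 5 V-ATPase genes had a log2 fold change above 0 (50.5% of all genes did), although ATP6V1B2 turned below 0 after the length and GC correction. Of the 5, 2 passed as higher (40%, against 19.5% of all genes). ATP6V0D1, a subunit of the membrane sector, stood at 87.1, 108 and 98.2 CPM in the controls and at 133, 153 and 119 CPM in the siFTO libraries. The groups did not overlap, and the log2 fold change was 0.47 (SE 0.11, adjusted p = 0.00997; adjusted p values of 0.0769 and 0.0639 without control replicate 1 or 3). ATP6V1A, the catalytic subunit, stood at 73.4, 68.9 and 69.2 CPM in the controls and at 89.3, 85.1 and 87.8 CPM in the siFTO libraries. The spread within each group was small, with a log2 fold change of 0.31 (SE 0.08, adjusted p = 0.0125). It missed the threshold without control replicate 3 (adjusted p = 0.054) or siFTO replicate 4 (adjusted p = 0.0573) or after the length and GC correction (0.17, adjusted p = 0.0664). With replicate 6 alone, ATP6V0D1 was at 0.29 and ATP6V1A at 0.32 (adjusted p values of 0.218 and 0.139). ATP6V1B2, a subunit that pairs with ATP6V1A, was at 67.1 to 68.4 CPM in the controls and at 83.9, 84.9 and 61.0 CPM in the siFTO libraries, so that replicate 6 lay below the controls. The log2 fold change of ATP6V1B2 was 0.18 (adjusted p = 0.264), and 0.31 without replicate 6 (adjusted p = 0.0188). ATP6V1H, a regulatory subunit (0.06, adjusted p = 0.699), and ATP6AP1, an accessory protein (0.14, adjusted p = 0.213), did not pass, although each siFTO library lay above each control for ATP6AP1, which passed with library totals as scaling (0.26, adjusted p = 0.0355).

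Of the transcription factors, TFEB fell and TFE3 did not pass. TFEB stood at 15.3, 19.7 and 15.9 CPM in the controls and at 12.03, 11.56 and 12.10 CPM in the siFTO libraries. The siFTO values hardly differed from each other and were below each control, with a log2 fold change of -0.51 (SE 0.13, adjusted p = 0.0134), which was -0.49 with replicate 6 alone (adjusted p = 0.131). TFE3 stood at 95.8 to 105 CPM in the controls and at 113, 117 and 92.6 CPM in the siFTO libraries, with a log2 fold change of 0.11 (SE 0.10, adjusted p = 0.424). Counts measure the transcripts of these factors, whose activity is set mainly by their location in the cell, which was not measured.

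Of the 6 autophagy genes, 4 rose, 1 fell and UVRAG did not pass (66.7% higher and 16.7% lower, against 19.5% and 17.9% of all genes). SQSTM1 (p62), a receptor that binds ubiquitinated cargo, stood at 293, 305 and 281 CPM in the controls and at 474, 544 and 371 CPM in the siFTO libraries. All siFTO libraries were above all controls, with a log2 fold change of 0.66 (SE 0.13, adjusted p = 0.00366) that was 0.34 with replicate 6 alone (adjusted p = 0.118). In GENCODE 29, 22% of the exonic bases of SQSTM1 overlap genes on the other strand. MAP1LC3B, which encodes the LC3B protein of the autophagosome membrane, stood at 58.0, 57.7 and 50.2 CPM in the controls and at 96.2, 99.2 and 68.2 CPM in the siFTO libraries. The increase was 0.67 on the log2 scale (SE 0.14, adjusted p = 0.00491, and adjusted p = 0.0536 without control replicate 3), and the near-identical MAP1LC3B2 had 6 to 17 reads per library. GABARAPL1, of the same protein family as LC3B, stood at 13.5, 15.3 and 12.6 CPM in the controls and at 17.8, 19.9 and 20.1 CPM in the siFTO libraries. Replicate 6 was the highest, and the log2 fold change was 0.48 (SE 0.12, adjusted p = 0.0121; adjusted p values of 0.0611 and 0.0543 without control replicate 1 or 3). With replicate 6 alone, MAP1LC3B was at 0.31 and GABARAPL1 at 0.54 (adjusted p values of 0.186 and 0.0667).

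ULK1, the kinase that starts autophagy, fell. It stood at 58.3, 67.2 and 63.9 CPM in the controls and at 38.77, 47.69 and 37.98 CPM in the siFTO libraries, without overlap. The log2 fold change was -0.61 (SE 0.11, adjusted p = 0.00297), and with replicate 6 alone it was -0.73 (adjusted p = 0.0129). WIPI1, which binds phosphoinositides on the forming membrane, was at 15.3, 8.71 and 10.4 CPM in the controls and at 22.4, 21.0 and 13.8 CPM in the siFTO libraries, so that replicate 6 lay within the range of the controls. Its log2 fold change of 0.75 (SE 0.23, adjusted p = 0.025) lost its call without control replicate 2 or 3 or siFTO replicate 4 or 5 (adjusted p values of 0.146, 0.137, 0.101 and 0.071) and was 0.29 with replicate 6 alone (adjusted p = 0.471), and 28.1% of its exonic bases overlap genes on the other strand. UVRAG, a partner of beclin, was at 15.7 to 22.6 CPM in the controls and at 18.6 to 21.4 CPM in the siFTO libraries (log2 fold change 0.12, adjusted p = 0.549).

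Altogether 8 of the 20 called genes passed in each of the 6 fits that left out a library. The share among all called genes was not computed. The 8 were LAMP1, LAMP2, MCOLN1, LIPA and SQSTM1, which were higher, and GAA, TFEB and ULK1, which were lower. Of these, LAMP1, LAMP2, MCOLN1 and ULK1 also passed with replicate 6 alone. In GENCODE 29 on GRCh38 these genes lie at chr13:113297241-113323672, chrX:120427827-120469365, chr19:7522626-7534009 and chr12:131894651-131923167.

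**Figure D3:**
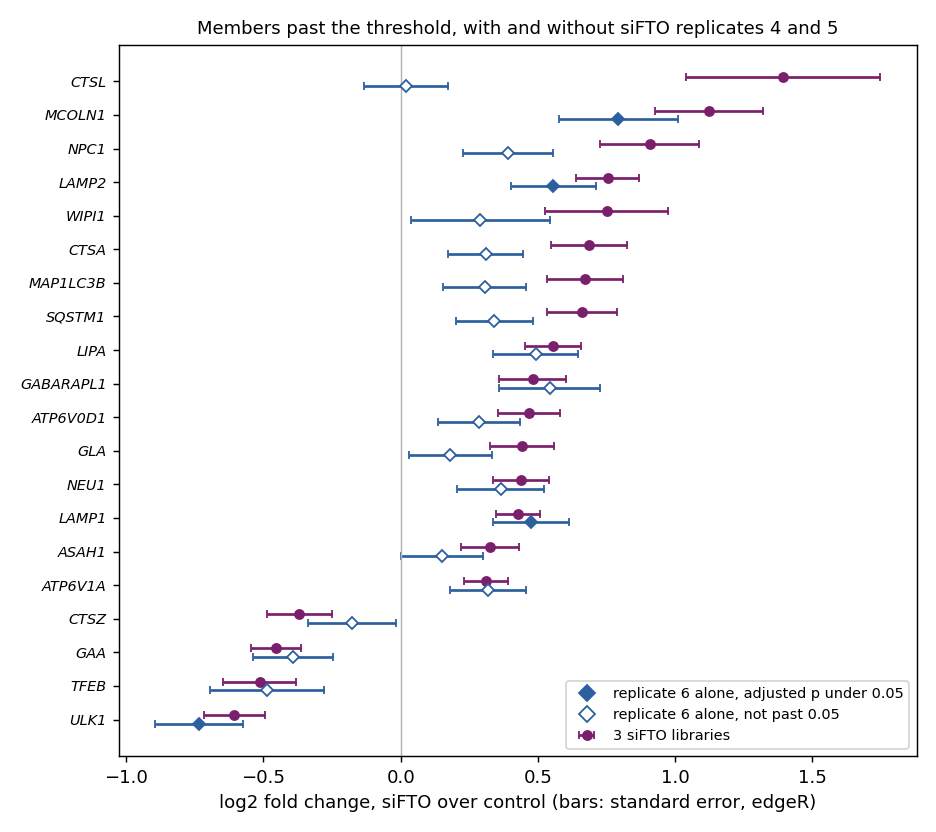
Log2 fold change of the 20 genes past the threshold (horizontal axis, siFTO over control, bars are the standard error from edgeR). Circles are the fit of 3 siFTO and 3 control libraries, and diamonds are replicate 6 alone against the controls, filled where the adjusted p is under 0.05. The 2 fits share the control libraries, and CTSL goes from 1.39 to 0.02 while LAMP1 is at 0.43 and 0.47.

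Per kilobase of exon in GENCODE 29, the control level ranged from 259 ± 16.4 CPM per kb (SD, n = 3) for PSAP to 1.55 CPM per kb for HEXA. Length is the union of all annotated exons of a gene, and the order depends on it. In the controls HEXA, with 12611 bases, had a mean of 19.6 CPM, and MCOLN1, with 3956 bases, had 7.45 CPM. CD63 followed PSAP at 134 ± 16.1 CPM per kb (SD, n = 3), then GRN, CTSZ and CTSD at 96.7, 91.3 and 79.0 CPM per kb. Luminal proteins occupied much of the top of the order, and NPC1, UVRAG, TFEB, WIPI1 and MCOLN1 were near its end, at 1.88 to 3.37 CPM per kb. Of the 34 pairs of neighbours in this order, 21 overlapped between their 3 control values, among them GRN with CTSZ, CTSZ with CTSD, LAMP1 with CTSB, and MCOLN1 with HEXA. The summed level of the 35 genes was 4763, 5006 and 4543 CPM in the controls and 5630, 6164 and 4807 CPM in the siFTO libraries, so that only replicates 4 and 5 exceeded the controls in this sum.

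Beyond the 35 genes, 129 other genes of the pathway were listed and 119 were tested. The others did not pass the filter, and some were read mainly in siFTO replicates 4 and 5. There ACP5 had 217 and 288 reads, CTSS 67 and 110, CTSO 45 and 76, GALC 43 and 50, and ATP6V0D2 31 and 35. MAP1LC3A had 19 and 47. Elsewhere ACP5 had at most 8 reads, MAP1LC3A at most 7, CTSS at most 4, and CTSO, GALC and ATP6V0D2 had 0. MCOLN3, ATP6V0A4, ATP6V1B1 and TFEC had at most 11 reads in any library. Of the 119 tested, 35 rose and 14 fell while 70 were not called, with a median log2 fold change of 0.14. The shares of 29.4% higher and 11.8% lower stand beside 19.5% and 17.9% of all genes tested. The higher count was 21 without control replicate 1, and the lower count was 9 without control replicate 1 and 7 without control replicate 2 or siFTO replicate 4. Replicate 6 alone gave 12 higher and 5 lower, where 6.17% and 5.89% of all genes were called. The other lysosomal membrane proteins gave 6 higher and none lower of 16 tested (37.5% higher, against 19.5% of all genes, median 0.25). OSTM1, the partner of the chloride transporter CLCN7, rose most of these, from 17.7 to 19.7 CPM in the controls to 41.0, 44.5 and 33.9 CPM in the siFTO libraries (log2 fold change 1.07, SE 0.12, adjusted p = 0.000493). The sialic acid exporter SLC17A5 and the cystine exporter CTNS followed with log2 fold changes of 0.63 and 0.57 (adjusted p values of 0.00409 and 0.00541), and OSTM1 and SLC17A5 also passed with replicate 6 alone (0.84 and 0.80, adjusted p of 0.00743 and 0.0122).

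The other hydrolases and luminal proteins were mixed, with 9 higher and 5 lower of 29 tested (31% and 17.2%, against 19.5% and 17.9% of all genes) and a median log2 fold change of 0.0019. CTSK, the collagen-degrading cathepsin K, stood at 3.26 to 3.48 CPM in the controls and at 26.0, 32.8 and 4.08 CPM in the siFTO libraries. Its log2 fold change of 2.65 (SE 0.57, adjusted p = 0.00613) was 0.28 with replicate 6 alone (adjusted p = 0.542), and it lost its call without control replicate 1, 2 or 3 (adjusted p values of 0.0684, 0.0726 and 0.0684) or with limma voom (adjusted p = 0.0685). The iduronate sulfatase IDS (0.81, adjusted p = 0.00907) was higher, mostly in replicates 4 and 5, with 49.1, 52.7 and 30.3 CPM in siFTO replicates 4, 5 and 6 beside control levels of 21.3 to 29.4 CPM. IDS missed the threshold when control replicate 2 or 3 was removed (adjusted p values of 0.0847 and 0.0727). The protease CTSF (-0.67), the dipeptidyl peptidase DPP7 (-0.58) and the beta-glucuronidase GUSB (-0.50) were lower (adjusted p values of 0.00335, 0.0105 and 0.00327), of which DPP7 lost its call without control replicate 2 or siFTO replicate 4 (adjusted p values of 0.0629 and 0.0523).

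Of 15 other V-ATPase subunits tested, 2 were higher and 1 was lower (13.3% and 6.67%, both below the shares of all genes, 19.5% and 17.9%). ATP6V1C1, which holds the cytoplasmic and membrane sectors of the pump together, stood at 55.3 to 64.2 CPM in the controls and at 83.3 to 87.8 CPM in the siFTO libraries (log2 fold change 0.52, SE 0.09, adjusted p = 0.00219). ATP6V0A2, a membrane subunit, was at 0.45 (adjusted p = 0.00873, and adjusted p = 0.144 after the length and GC correction), and both passed with replicate 6 alone (adjusted p values of 0.027 and 0.0461). ATP6V1E2 was at -0.40 (adjusted p = 0.0479) and did not pass in any fit that left out a control (adjusted p values of 0.125, 0.106 and 0.12) nor without siFTO replicate 4 or 5 (adjusted p values of 0.086 and 0.159), with library totals as scaling (adjusted p = 0.163), without a filter (adjusted p = 0.135) or with DESeq2 (adjusted p = 0.0785).

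Of 33 other genes of the autophagy machinery, 11 were higher and 4 were lower (33.3% and 12.1%, against 19.5% and 17.9% of all genes, median 0.13). PLEKHM1, an adaptor for fusion with the lysosome, rose from 39.5 to 43.1 CPM in the controls to 65.6 to 71.0 CPM in the siFTO libraries (log2 fold change 0.75, SE 0.09, adjusted p = 0.000546), and its pseudogene PLEKHM1P1 had 137 to 264 reads per library. PIK3R4, the regulatory subunit of the lipid kinase that acts after ULK1, and ATG4A, a protease that trims GABARAP proteins, were at 0.68 and 0.67 (adjusted p values of 0.00153 and 0.0027). ATG10 (-0.58), VAMP8 (-0.47) and ATG4B (-0.40), which act in conjugation, membrane fusion and the trimming of LC3, were lower (adjusted p values of 0.00441, 0.0166 and 0.00719). VAMP8 lost its call without control replicate 1 or 2 or siFTO replicate 4 (adjusted p values of 0.0644, 0.0724 and 0.0737) or siFTO replicate 5 (adjusted p = 0.0507), nor after the length and GC correction (-0.08, adjusted p = 0.51). PLEKHM1, PIK3R4 and ATG4A passed with replicate 6 alone (adjusted p values of 0.0109, 0.00592 and 0.0234).

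Of 9 other autophagy receptors, 2 were higher and 1 was lower (22.2% and 11.1%), near the 19.5% and 17.9% of all genes. BNIP3, a mitophagy receptor, stood at 1.54 to 2.43 CPM in the controls and at 20.0, 27.5 and 2.26 CPM in the siFTO libraries, so that replicate 6 was within the range of the controls. Its log2 fold change of 3.11 (SE 0.69, adjusted p = 0.00668) was 0.23 with replicate 6 alone (adjusted p = 0.732), and it lost its call without control replicate 1, 2 or 3 (adjusted p values of 0.0729, 0.0817 and 0.0604) or with limma voom (adjusted p = 0.0985). FYCO1, which links autophagosomes to kinesin, was at 0.50 (adjusted p = 0.00491), and CALCOCO2, the receptor NDP52, fell from 131 to 136 CPM in the controls to 96.1 to 103 CPM in the siFTO libraries (log2 fold change -0.43, SE 0.08, adjusted p = 0.0028, and -0.47 with replicate 6 alone, adjusted p = 0.0447).

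Among the genes listed as regulators of TFEB at the lysosomal surface, 5 of 17 tested were higher and 3 were lower (29.4% and 17.6%, the latter near the 17.9% of all genes, of which 19.5% were higher). The list and the 5 higher genes include MITF, a transcription factor related to TFEB rather than its regulator (log2 fold change 0.64, adjusted p = 0.0367 from edgeR). The folliculin partners FNIP2 and FNIP1, which act with FLCN on the Rag GTPases, and the kinase MTOR, which holds TFEB in the cytoplasm when nutrients are plentiful, had log2 fold changes of 0.93, 0.62 and 0.48 (adjusted p values of 0.00495, 0.00622 and 0.00612). FNIP2 stood at 5.16 to 7.34 CPM in the controls and at 14.1, 13.2 and 9.62 CPM in the siFTO libraries. The Ragulator subunits LAMTOR4 (-0.63), LAMTOR2 (-0.62) and LAMTOR5 (-0.32), which anchor the Rag GTPases to the lysosome, were lower (adjusted p values of 0.0107, 0.00471 and 0.0334). LAMTOR5 did not pass in the fits without control replicate 1 or 2 or siFTO replicate 4, 5 or 6 (adjusted p values of 0.0886, 0.106, 0.0634, 0.0648 and 0.0547), with library totals (adjusted p = 0.14) or after the length and GC correction (adjusted p = 0.108). With replicate 6 alone, MTOR was at 0.58 and LAMTOR2 at -0.63 (adjusted p values of 0.0249 and 0.0445).

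**Figure D4:**
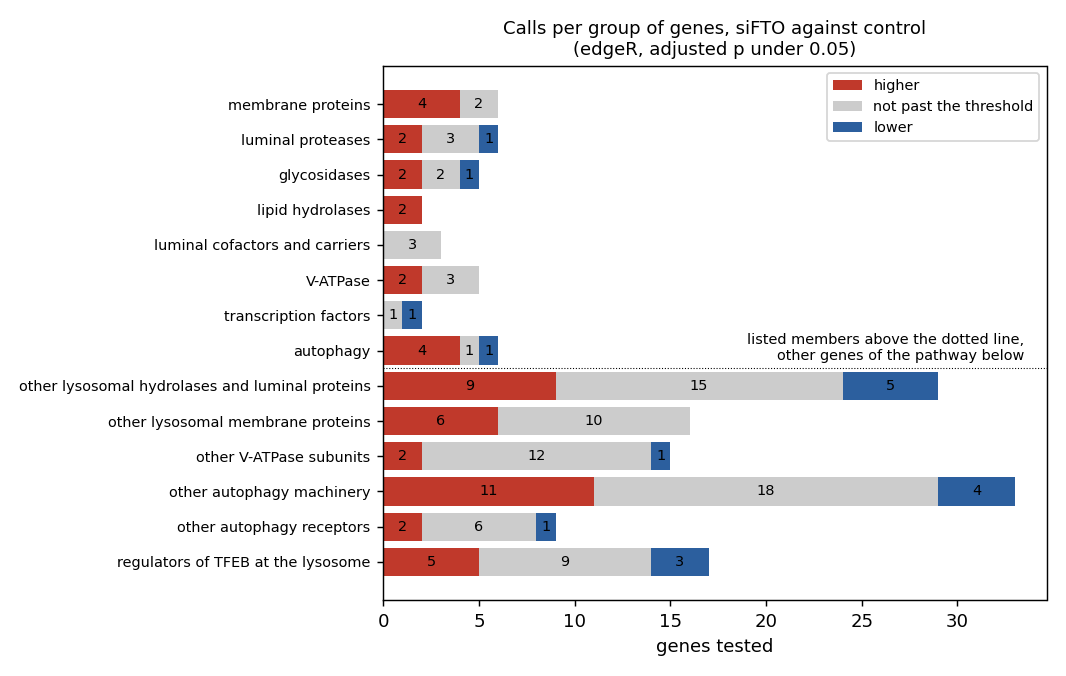
Number of genes tested (horizontal axis) that were higher, lower or not past the threshold in the siFTO libraries, for each role among the 35 genes (above the dotted line) and for each group of other genes of the pathway (below it). Membrane proteins were higher in 4 of 6 and 6 of 16 genes with none lower, and the other hydrolases were mixed, with 9 higher and 5 lower of 29. Of all genes tested, 19.5% were higher and 17.9% were lower.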

How the data were processed

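RNA-seq counts of 3 control and 3 siFTO libraries were used. The authors deposited 1 file of read counts per gene for each sample, without normalization. The submitters' processing notes name hg19 and GRCh37 as builds, TopHat2 2.0.11 and HTSeq. Its strand setting and annotation were not given in the sources used here, so how reads of overlapping genes were assigned or dropped is not known. Symbols were matched by Ensembl ID, and lengths, GC content and overlaps were taken from GENCODE 29 (GRCh38), a different build from that in the notes. Lengths are the union of all annotated exons (19341 bases for SCARB2, 15378 for ASAH1 and 12611 for HEXA). GC content is that of the longest transcript. The length and GC correction used these values, and their part in its results was not tested.

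In R 4.3.3, genes were filtered with filterByExpr of edgeR 4.0.16 (minimum count 10, minimum total 15). Its quasi-likelihood test was run on TMM-scaled libraries, with group as the only term. Tests were two-sided, with Benjamini-Hochberg adjustment over 14965 genes and a threshold of 0.05. The SE is the log2 fold change divided by the root of F. The test was checked on simulated data. Alternatives were other scalings and filters, DESeq2 1.42.0, limma 3.58.1 (voom), a per-library loess correction for length and GC content, and leaving out libraries. The 35 genes, the other lists and the alternatives were chosen with earlier results of these data known. From each wider list, up to 3 genes in each direction with the largest change past the threshold and an average log2 CPM of at least 3 were named. A gene that this rule named is not reported here.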

Additional observations from a re-analysis of the deposited data

How the results depend on the processing

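No paired analysis was possible because the groups share no replicate numbers. Among the 35 genes, 16 were higher and 4 lower. The count of higher genes ranged from 8 (without control replicate 3) to 19 (without siFTO replicate 6) when a library was left out, and was 9 without control replicate 1. The count of lower genes ranged from 3 to 4. Without siFTO replicates 4 and 5 it was 3 higher and 1 lower. Under the other scalings, filters, tests and the length and GC correction the counts were 15 to 19 higher and 3 to 5 lower. The median log2 fold change of the 35 genes was between 0.11 (without siFTO replicates 4 and 5) and 0.36 (library totals alone). Library totals moved the median of all genes by 0.12, and the median of the 35 genes minus that of all genes was 0.233 with library totals and 0.235 with TMM, but 0.146 without a filter, 0.176 with the length and GC correction, 0.157 without siFTO replicate 5 and 0.12 without siFTO replicates 4 and 5. For the wider lists (35 higher, 14 lower), library totals gave 53 higher and 9 lower, leaving out a library 21 to 45 higher and 7 to 13 lower, and leaving out siFTO replicates 4 and 5 gave 12 higher and 5 lower. Over all genes the same settings moved the shares from 19.5% higher and 17.9% lower to 27.3% and 11.9% with library totals, 8.55% to 23.6% and 9.96% to 18% with a library left out, and 6.17% and 5.89% without siFTO replicates 4 and 5. FTO was at -0.46 with library totals (adjusted p = 0.0576 from edgeR) and at -0.74 to -0.47 when a library was left out.

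Genes that did not pass changed sign in some fits, and the cause was not tested. With library totals, SCARB2 was at 0.0572, GLB1 at 0.12, NPC2 at 0.10 and GRN at 0.0176. With the length and GC correction, GLB1 was at 0.0387, NPC2 at 0.0490, GRN at 0.10 and ATP6V1B2 at -0.0264. GLB1 was at 0.00070 with at least 10 counts in every library and at 0.0036 with limma voom, and PSAP at -0.0044 with DESeq2-type size factors, -0.0254 with upper-quartile factors and -0.0043 with DESeq2. Without siFTO replicates 4 and 5, CD63 was at -0.21, CTSB at -0.0888, CTSD at -0.27, PSAP at -0.0482, ATP6V1H at -0.0847, ATP6V1B2 at -0.15 and TFE3 at -0.11. When 1 library was left out, SCARB2 ranged from -0.13 to 0.0218, CTSD from -0.0764 to 0.25, GLB1 from -0.0475 to 0.0655, NPC2 from -0.0911 to 0.0372, PSAP from -0.0492 to 0.0396 and ATP6V1H from -0.0148 to 0.18. None of the 20 called genes changed sign in any alternative. These fits reuse the libraries in which the genes were called, and the share among all called genes was not computed.

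The depth of 10991789 to 19891269 counts left MCOLN1, the scarcest of the 35 genes by CPM in the controls, with 69 reads in control replicate 1.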
